A study of Mus musculus with 15 samples.

Results

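Transcript levels in fetal red cell precursors that carried mutations of both Klf3 and Klf8 were compared with those of wild-type precursors. The comparison was set by genotype alone, with 4 doubly mutant arrays against 4 wild-type arrays out of 15 in the study, and no measured value entered the choice. Every transcript cluster with a gene symbol was tested, which gave 23410 clusters of the 35556 on the array. All arrays were hybridised with RNA of TER119+ cells, purified on magnetic columns from the liver of FVB/NJ mouse embryos at stage E13.5. The doubly mutant group was labelled Klf3-/- Klf8gt/gt, in which gt stands for a gene-trap allele by the usual reading of the symbol. Neither mutation is limited to a cell type by anything in the labels. The remaining arrays, 3 labelled Klf3-/- and 4 labelled Klf8gt/gt, entered the same model and share its estimate of the spread. The labels do not say that each array came from a separate embryo, so the p-values rest on how these samples scatter, and some of that scatter may be technical. Samples were matched by litter as far as possible, but litters are not assigned to arrays in the sources used here.

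KLF3 and KLF8 belong to the Kruppel-like factors, zinc finger proteins that bind CACCC and related GC-rich elements in promoters and enhancers. Both carry a short motif that recruits the corepressor CtBP, and both mainly repress, whereas KLF1, the erythroid founder of the family, activates globin, haem and membrane genes through the same kind of element. KLF1 also activates Klf3 and Klf8, so that the repressors act on a background of sites that the activator can use. TER119 is a surface antigen of maturing erythroblasts and red cells, and in the fetal liver these cells mature around a central macrophage in erythroblastic islands.

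The identity of the samples and the spread of the groups bear on every value below. By Xist and Y-linked transcripts all 4 wild-type arrays were male, and the doubly mutant arrays comprised 2 males (replicates 1 and 2) and 2 females (replicates 3 and 4). Klf8 lies on the X chromosome, so a male cannot carry gt/gt as labelled. The number of trapped Klf8 alleles thus differs with sex within the group, and the label does not show this. The median standard deviation (SD) over clusters was 0.17 on the log2 scale in doubly mutant arrays and 0.12 in wild-type arrays. Erythroid markers were high in every array, with a list mean of 12.29 ± 0.16 for the double mutant and 12.47 ± 0.08 for wild type (log2, SD, n = 4 each). Markers of other cells were measured as well. The mean of 15 macrophage markers was 7.17, 7.96, 7.92 and 8.82 in doubly mutant replicates 1 to 4, and 9.07, 8.91, 9.16 and 8.95 in wild-type replicates 1 to 4. Each doubly mutant array thus lay below each wild-type array, with replicate 1 lowest and replicate 4 closest to wild type. The mean was 8.32 to 8.84 in Klf3-/- arrays and 8.43 to 8.99 in Klf8gt/gt arrays, and replicate 4 lay within both ranges. Lymphoid and mast cell markers stayed low throughout, at 4.93 and 4.92 in doubly mutant arrays, where 7 of 13 and 7 of 10 markers had group means under the lower quartile of each array.

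Promoter sequences of the genes with the largest changes are shown first, because both factors bind the CACCC element. Each line gives the 250 bases upstream of the transcription start of 1 gene, read from the RefSeq promoter table of mouse build GRCm38.p6, 5′ to 3′ on the strand of the gene. Capitals mark every CACCC and its reverse complement GGGTG. This is the reference genome, and FVB/NJ sequence was not read. The first 5 genes are among the largest rises and Grap2 is the second largest fall. They were picked and do not stand for all large changes. C1qtnf12, another large rise, had no window there.
Rragd (chr4:32982748-32982997, plus strand): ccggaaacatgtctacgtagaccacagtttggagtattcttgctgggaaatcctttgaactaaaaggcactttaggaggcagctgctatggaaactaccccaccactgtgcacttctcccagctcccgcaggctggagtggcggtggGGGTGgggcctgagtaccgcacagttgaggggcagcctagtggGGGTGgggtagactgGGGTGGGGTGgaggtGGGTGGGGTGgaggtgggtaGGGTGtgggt
Pqlc3 (chr12:17000119-17000368, minus strand): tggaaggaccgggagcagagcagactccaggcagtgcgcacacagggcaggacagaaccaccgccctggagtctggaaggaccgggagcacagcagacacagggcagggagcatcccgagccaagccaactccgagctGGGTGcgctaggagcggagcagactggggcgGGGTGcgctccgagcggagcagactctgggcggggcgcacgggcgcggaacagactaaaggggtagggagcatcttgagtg
Kdelr3 (chr15:79516158-79516407, plus strand): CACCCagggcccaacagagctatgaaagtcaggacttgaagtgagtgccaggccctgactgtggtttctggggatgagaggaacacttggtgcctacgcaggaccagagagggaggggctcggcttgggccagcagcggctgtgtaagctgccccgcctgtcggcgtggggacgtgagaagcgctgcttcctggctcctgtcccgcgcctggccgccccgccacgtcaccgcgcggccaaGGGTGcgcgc
Supt3 (chr17:44776916-44777165, plus strand): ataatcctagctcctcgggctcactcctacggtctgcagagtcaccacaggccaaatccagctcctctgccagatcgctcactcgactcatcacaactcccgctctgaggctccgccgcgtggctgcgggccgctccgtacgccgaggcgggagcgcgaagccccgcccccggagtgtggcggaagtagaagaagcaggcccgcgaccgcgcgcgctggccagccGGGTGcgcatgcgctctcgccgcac
Lgals3 (chr14:47373610-47373859, plus strand): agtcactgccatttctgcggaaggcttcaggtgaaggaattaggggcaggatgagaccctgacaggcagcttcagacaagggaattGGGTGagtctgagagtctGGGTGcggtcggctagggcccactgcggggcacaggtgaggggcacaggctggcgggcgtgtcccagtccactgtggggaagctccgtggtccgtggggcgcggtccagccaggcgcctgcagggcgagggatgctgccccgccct
Grap2 (chr15:80623233-80623482, plus strand): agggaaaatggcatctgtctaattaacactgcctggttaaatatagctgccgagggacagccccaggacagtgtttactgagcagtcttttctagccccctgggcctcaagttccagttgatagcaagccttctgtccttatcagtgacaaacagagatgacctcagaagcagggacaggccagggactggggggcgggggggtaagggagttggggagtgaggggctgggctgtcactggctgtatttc
The Rragd window held 7 copies of CACCC, all written as GGGTG on this strand, and the last of them, read on the other strand, is part of CCACACCC, the longer element known from the adult beta-globin promoter. Windows of Pqlc3, Kdelr3 and Lgals3 held 2 copies each, that of Supt3 held 1 and that of Grap2 held 0. Counts in windows not printed overlapped between the directions. Among large rises Cttnbp2nl and Cyp4f39 held 0 and Prune2 held 2. Among large falls Prokr1 held 0 and Cd5l and Pik3r1 held 2 each. Only the first window listed for each gene was searched, here and for the shares below. Cttnbp2nl and Pik3r1 have 2 windows listed, and the second was not read. A copy is a match of letters and does not show binding.

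CACCC is frequent in promoters, so these counts were set against all windows of the same length. On either strand, CACCC stood in 54.6% of 15563 windows of measured genes, in 70.3% of the 239 windows of genes that rose and in 54.8% of the 330 windows of genes that fell. Genes that rose also had windows richer in G and C, at 62.8% on average against 56.1% over all genes and 57.9% for genes that fell, and the part of base composition in the CACCC share was not tested. The longer CCACACCC, which contains CACCC, was found in 6.7% of windows of genes that rose, 2.1% of those that fell and 3.4% of all. AGATAA, the element of GATA factors, was about as frequent in each group (8.4%, 9.1% and 8.7% in that order). GAGGAAGT, an element of the kind bound by PU.1 and other ETS factors, was present in 2.9%, 2.7% and 2.2%.

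The targeted genes were examined next. Klf3 read 11.73, 11.36, 11.34 and 11.06 in the doubly mutant replicates and 10.12, 10.20, 10.27 and 10.51 in wild type. All arrays labelled Klf3-/- on both backgrounds were therefore higher than wild type, by 1.10 ± 0.12 (SE) on the log2 scale for the double mutant (limma, Benjamini-Hochberg adjusted p = 7.53e-05). A cluster summarises probes along a transcript, so probes that lie beyond a deletion could give this signal, and it does not check the Klf3 label. Klf8 read 8.04, 7.35, 6.85 and 6.91 against 5.13, 5.55, 5.34 and 5.43. It rose by 1.93 ± 0.20 (adjusted p = 4.76e-05) from a wild-type level below the array medians of 6.28 to 6.41. No fold is given here or below where a group mean lies under those medians, since the files hold no detection call. An exact two-sided permutation test of 4 arrays against 4 reaches p = 0.0286 at best, which was its result for both genes. Of the 17 Kruppel-like factors measured, Klf3 and Klf8 rose and Klf1 fell. Klf1 read 11.23, 10.97, 10.78 and 10.88 against 11.47, 11.39, 11.41 and 11.22, and the groups overlapped at 1 array of each. Its fall of 0.41 on the log2 scale was at the edge of the threshold (adjusted p = 0.0487) and was kept only without doubly mutant replicate 1, Klf8gt/gt replicate 1 or wild-type replicate 4; leaving out any of the other 12 arrays ended it (adjusted p up to 0.156). Klf12, the third CtBP-binding member, gave 0.90 and did not pass (adjusted p = 0.0879).

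In the model over all 15 arrays, 772 clusters differed between doubly mutant and wild-type arrays at an adjusted p under 0.05, which is 3.3% of those tested. Of these, 356 were higher (1.52%) and 416 lower (1.78%), standing for 313 genes that rose and 397 that fell. Rises were the larger in size. Past a 2-fold difference there were 108 higher clusters (0.461%) and 60 lower ones (0.256%), and past 4-fold 23 and 2. The median difference was 0.72 among clusters called higher, -0.63 among those called lower and -0.02 over all clusters. The ranges of the 2 groups were separate at 1966 clusters, or 8.4%, and at 704 of the 772 called, or 91.2%. Single arrays decided how many clusters passed: the count was 382 without wild-type replicate 3, 403 and 472 without wild-type replicates 2 and 1, 496 without doubly mutant replicate 3 and 1389 without doubly mutant replicate 1. Fitting only the 8 arrays of both groups gave 295. A core of 118 clusters, 76 higher and 42 lower, passed in the same direction under each of the 29 alternative analyses. Some alternatives tested fewer clusters, such as 11705 with a mean signal above the median and 21789 with 1 symbol. Dim clusters and those of several symbols could therefore not enter the core.

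**Figure D1:**
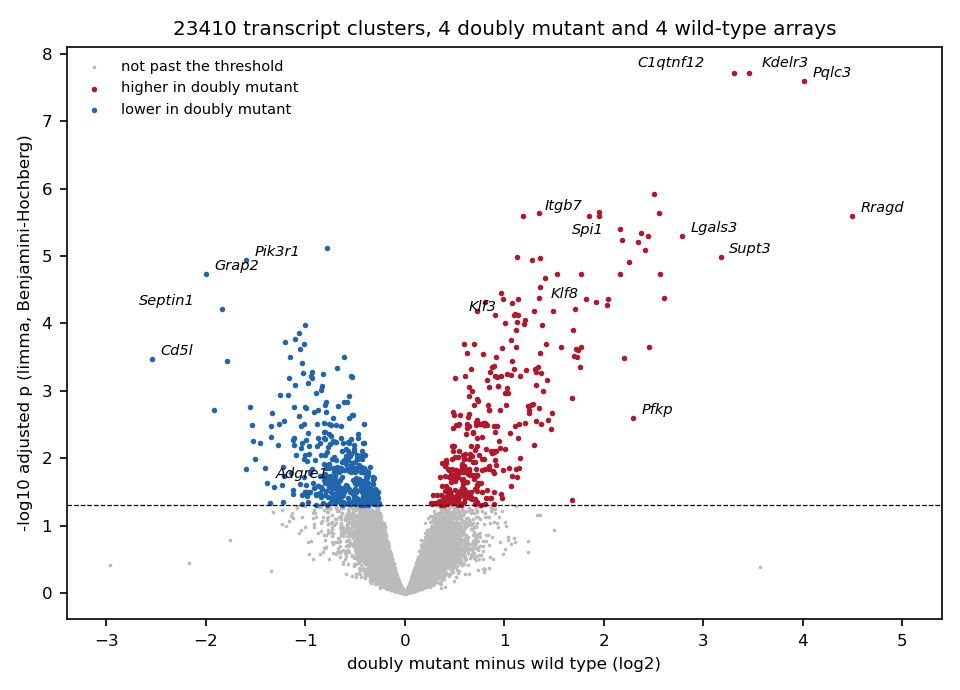
Difference of each of 23410 transcript clusters between 4 doubly mutant and 4 wild-type arrays (horizontal axis, log2) against the negative log10 of the adjusted p from limma (vertical axis), with the threshold of 0.05 dashed. Red clusters (356) were higher and blue clusters (416) lower in doubly mutant arrays, and the red cloud reaches further out, to Rragd at 4.50, than the blue one does, to Cd5l at -2.54.

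The 15 largest rises, taken among genes whose groups did not overlap, came from genes of unlike function, and the first of them serve lysosomal signalling and the secretory pathway. Rragd encodes RagD, one of the small GTPases that bring mTORC1 to the lysosome when amino acids are plentiful. It read 11.45, 10.86, 11.13 and 10.40 in doubly mutant arrays and 5.71, 6.58, 6.37 and 7.20 in wild type. The gap between the groups was wide, and the means differed 22.6-fold (4.50 ± 0.35, adjusted p = 2.57e-06). The rest of that pathway did not go with it. Of 28 measured Rag GTPase, Ragulator, folliculin, GATOR and mTORC1 genes only Rragd passed, and the list median was -0.02, 0.02 after a further quantile normalization. Rraga gave -0.21 (adjusted p = 0.31), Rragc, the usual alternative to RagD in the heterodimer, -0.11 (0.607) and Rragb 0.49 (0.113).

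Pqlc3, a PQ-loop membrane protein gene, read 12.27, 11.89, 11.86 and 11.20 against 7.86, 7.90, 8.01 and 7.39, a 16.1-fold rise. Kdelr3, a receptor that returns escaped chaperones from the Golgi to the endoplasmic reticulum, read 9.54, 9.21, 8.94 and 8.57 against 5.68, 5.50, 5.77 and 5.50. Its difference of 3.46 ± 0.17 had the smallest adjusted p of the 15 (1.93e-08), together with C1qtnf12, and it was the only one of 20 retention and transport genes to pass. Kdelr1 gave 0.01 (adjusted p = 0.987), and the list median of 0.02 turned to -0.01 after median centring. Among other membrane genes of this compartment, Atl1, a GTPase that fuses tubules of the endoplasmic reticulum, rose 5.35-fold. C1qtnf12, which encodes the secreted hormone adipolin, read 10.82, 10.41, 10.06 and 9.88 against 7.02, 7.06, 7.11 and 6.76. It belongs with Lgals3 and Klf8 to the genes earlier described as KLF3 targets in mouse cells, and 3 of 3 rose. Those targets were found in Klf3-deficient mouse material, so their direction is not independent evidence.

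Supt3, a subunit of the SAGA histone acetyltransferase complex, read 11.84, 11.30, 10.98 and 9.81 against a tight wild-type range of 7.72 to 7.97. The replicates of the double mutant spread widely here (SD 0.86), yet the lowest of them stood clear of wild type and the rise was 9.05-fold. Of 24 genes of SAGA, mediator and chromatin remodelling, Supt3 was the only one that rose and Pbrm1, a PBAF subunit, the only one that fell (-0.41 ± 0.08, adjusted p = 0.00898); its other clusters gave -0.37 (0.0345) and -0.29 (0.125). Dffb, the caspase-activated DNase, rose 5.07-fold as the only one of 17 apoptosis genes to pass. Hydin, a protein of the central apparatus of cilia, rose by 2.37 and Dkkl1, a secreted dickkopf-like protein, by 2.45, both from wild-type levels below the array medians. The cytochrome P450 gene Cyp4f39 read 8.87, 7.66, 8.62 and 6.94 against 5.43 to 5.70, so that its doubly mutant replicates spread more (SD 0.89) than those of any gene just named. Prune2 rose by 2.55 in its brighter cluster, while its second cluster gave 0.09 (adjusted p = 0.777).

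Of 22 S100 and annexin genes 4 rose and 0 fell. S100a10, the light chain that binds annexin A2, read 12.08, 12.09, 11.99 and 11.72 against 9.26, 9.28, 9.49 and 9.82. Lgals3, which encodes galectin-3, read 12.29, 12.06, 11.90 and 10.91 against 9.07, 9.01, 9.33 and 8.61. Anxa5 (1.21 ± 0.14), Anxa2 (0.67 ± 0.17) and Anxa7 (0.53 ± 0.11) were the others that rose. Anxa5 kept its call whichever array was left out, Anxa7 lost it without wild-type replicate 3 (adjusted p = 0.0594), and Anxa2 kept it only without doubly mutant replicate 1 or 4, Klf8gt/gt replicate 1 or 2, or wild-type replicate 4. The other 18 members did not pass, and the median over all 22 was 0.06. S100a6 gave 0.64 (adjusted p = 0.06). Lgals3 was the only one of 9 galectins to pass, with a list median of -0.21.

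Single genes of cell shape, adhesion and lineage rose, while the lists that hold them had medians near 0. Cttnbp2nl, a cortactin-associated regulator of actin, read 10.68, 10.57, 9.72 and 9.32 against 7.20, 7.36, 7.82 and 7.66, and Vasp, which promotes actin filament growth, rose by 0.55 ± 0.09. Of 24 actin genes (median 0.05) these 2 rose and 1 fell, Lcp1 (-0.81 ± 0.17), the plastin of blood cells, whose call was lost without wild-type replicate 3 (adjusted p = 0.0541). Itgb7, a leukocyte integrin chain, read 8.41, 7.70, 8.14 and 8.10 against 6.49, 6.13, 5.91 and 6.01, and it was the only one of 22 integrins to pass (list median 0.02, -0.01 after median centring). Spi1, which encodes the myeloid and lymphoid factor PU.1, read 10.68, 10.18, 10.13 and 9.69 against 7.98, 8.28, 7.94 and 7.74. It rose 4.54-fold and was the only one of 17 PU.1-related and myeloid regulators to pass. The list median for those regulators was 0.03, and -0.0009 after either rescaling. Arl15, a small GTPase, rose 3.24-fold (adjusted p = 1.27e-04). Tet1, which oxidises methylcytosine, rose by 1.02 in its brightest cluster and by 0.84 and 0.85 in the others, and the histone H3K27 demethylase gene Kdm6b rose by 0.58. These were the 2 called of 20 Polycomb and DNA methylation genes, whose median of 0.01 turned to -0.02 after median centring, and Kdm6b lost its call without wild-type replicate 2 or 3 (adjusted p = 0.0517 and 0.0585). With the macrophage mean as a covariate 0 of the 20 passed (Tet1 0.68, adjusted p = 0.0739; Kdm6b 0.72, 0.0564).

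**Figure D2:**
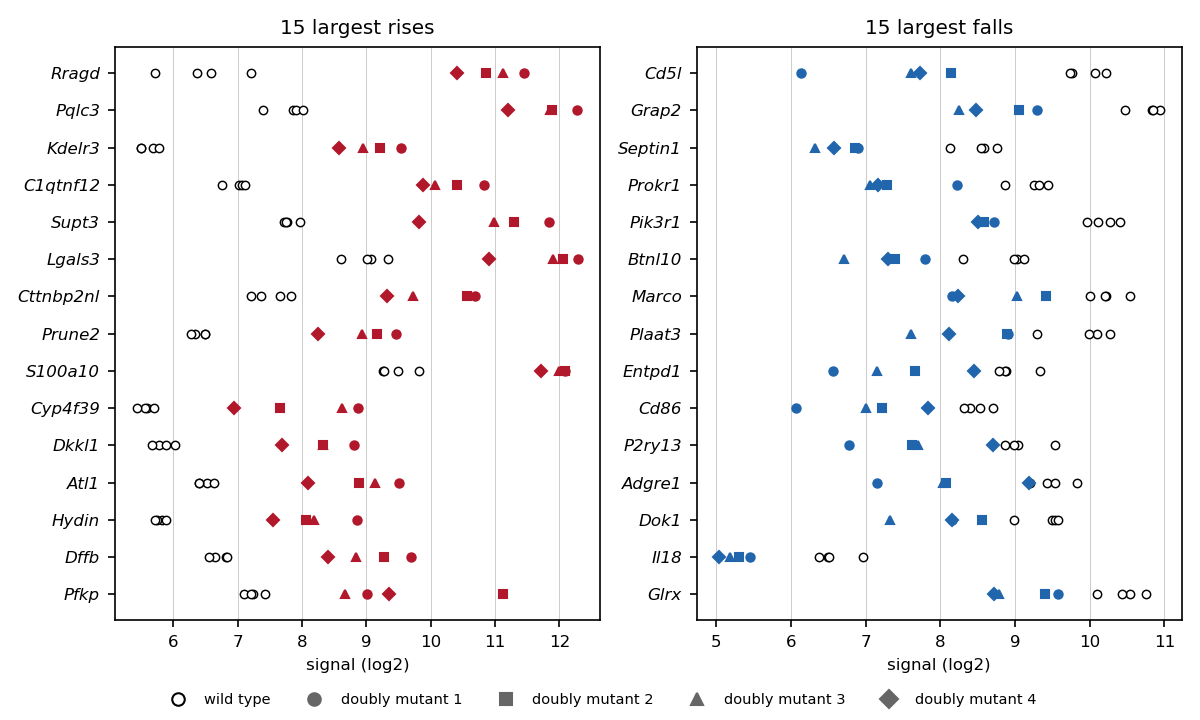
Log2 signal of the 15 genes with the largest rises (left, red) and the 15 with the largest falls (right, blue), 1 point per array, with open circles for the 4 wild-type arrays and a symbol of its own for each doubly mutant array. Groups do not overlap because the genes were chosen that way. Doubly mutant replicate 4 (diamond) was the lowest of its group in 14 of the 15 rises and replicate 1 (filled circle) the highest in 13.

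Within the double mutant the size of the rises was ordered by array. Replicate 1 was highest in 13 of the 15 largest rises and replicate 4 lowest in 14. Over all 356 clusters called higher, the median distance from the wild-type mean was 0.81, 0.73, 0.79 and 0.62 in replicates 1 to 4. The falls had another order: over the 416 clusters called lower the medians were -0.43, -0.56, -0.77 and -0.54, with replicate 3 the furthest from wild type and replicate 1 the nearest. With sex as a covariate 270 of the 356 rises and 268 of the 416 falls still passed. Pfkp, the platelet-type phosphofructokinase, departed from the common order. It read 9.01, 11.12, 8.67 and 9.35 against 7.09 to 7.43, with replicate 2 far above the others.

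The 15 largest falls included signalling genes, genes of macrophages and others. Grap2, the adaptor Gads that links receptors to SLP-76, read 9.30, 9.05, 8.25 and 8.48 against 10.83, 10.94, 10.85 and 10.47, with a difference of -2.0 ± 0.19 (adjusted p = 1.85e-05). Pik3r1, the p85 alpha subunit of phosphoinositide 3-kinase, was the most even, at 8.72, 8.58, 8.56 and 8.50 against 10.11, 10.27, 10.40 and 9.96. Septin1, a filament-forming GTP-binding protein, read 6.90, 6.85, 6.32 and 6.58 against 8.13 to 8.76. The groups stood well apart in all 3 genes. Prokr1, a receptor for prokineticins, fell 3.45-fold and Btnl10, a butyrophilin-like gene, 2.95-fold. Plaat3, a phospholipase and acyltransferase, fell 2.88-fold, Glrx, the cytosolic glutaredoxin, 2.52-fold and Dok1, a docking protein of tyrosine kinase signalling, 2.54-fold.

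Several of the rest are known from macrophages. Cd5l, a scavenger-like protein secreted by tissue macrophages, had the largest of these falls, reading 6.13, 8.14, 7.61 and 7.73 against 10.07, 9.76, 10.22 and 9.73. Adgre1, a widely used macrophage surface marker gene, read 7.15, 8.08, 8.03 and 9.19 against 9.43, 9.53, 9.83 and 9.20, so that replicate 4 lay just under the lowest wild-type array. The scavenger receptor gene Marco, the ectonucleotidase gene Entpd1 (CD39), the costimulator gene Cd86 and the ADP receptor gene P2ry13 fell as well, with differences from -1.54 to -1.41; P2ry13 lost its call without wild-type replicate 3 (adjusted p = 0.0613). In bulk RNA, fewer macrophages and less RNA of these genes per macrophage cannot be told apart. Of 15 macrophage markers, 6 fell (Cd5l, Timd4, Marco, Adgre1, Fcgr1 and C1qa), 0 rose, all 15 had negative differences and the median was -1.17. The number passing was 2 without wild-type replicate 3, 3 without wild-type replicate 1 or 2 or doubly mutant replicate 2 or 3, and 11 without doubly mutant replicate 4. Among the 6, Cd5l and Marco kept their calls without any one array, whereas Timd4 lost its call without wild-type replicate 3 (adjusted p = 0.0601) and Adgre1 and Fcgr1 without wild-type replicate 1, 2 or 3 or doubly mutant replicate 2 or 3 (up to 0.0878 and 0.088). C1qa kept its call only without doubly mutant replicate 4, Klf3-/- replicate 3 or Klf8gt/gt replicate 1.

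**Figure D3:**
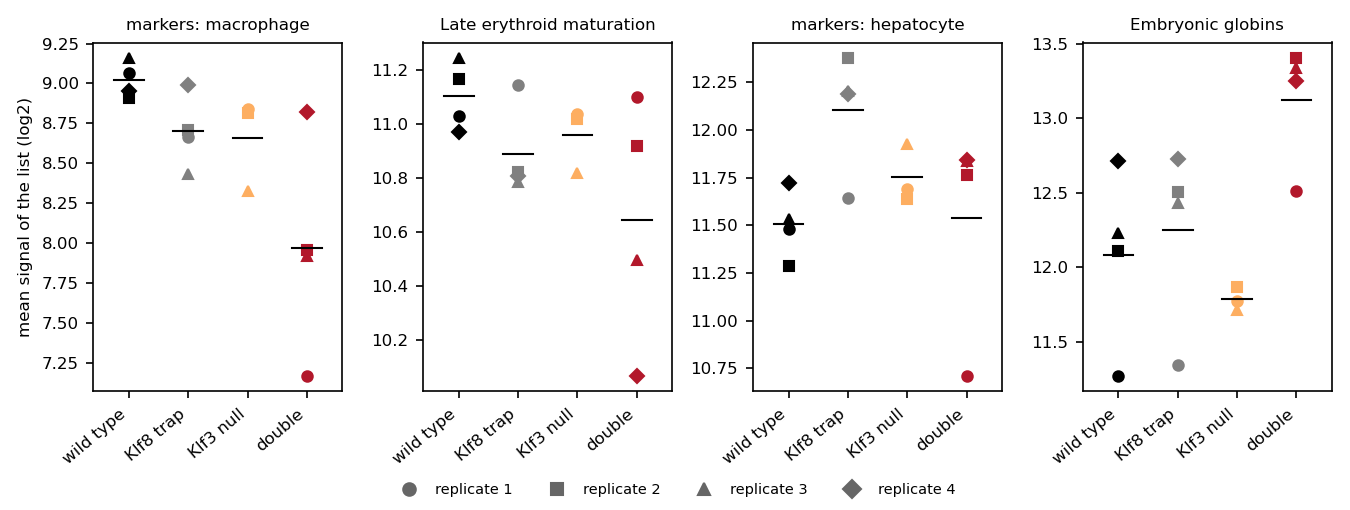
Mean log2 signal of 4 gene lists in each of the 15 arrays, by genotype, with replicate number as symbol and the group mean as a bar; each panel has its own scale. Macrophage markers had their lowest group mean in the double mutant, with arrays from 7.17 to 8.82. The range was 8.32 to 8.84 in Klf3-/- and 8.43 to 8.99 in Klf8gt/gt arrays. Late maturation genes ran from 10.07 to 11.10 in the double mutant, and within it hepatocyte markers and embryonic globins were lowest in replicate 1 (10.71 and 12.51).

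The macrophage mean was then added to the model as a covariate. It is itself an outcome of the comparison, and Cd5l, Marco and Adgre1 are among its 15 genes, so their values in that model are partly fixed. All 15 of the largest rises still passed, with Rragd at 4.11, Pqlc3 at 3.58 and Kdelr3 at 3.13 log2 units. Of the 15 largest falls 8 passed, among them Grap2 (-2.32), Prokr1 (-2.18), Septin1 (-1.83) and Pik3r1 (-1.55). The 7 that did not pass fell into a pair of sets. Entpd1, Cd86, P2ry13 and Adgre1 came close to 0, at -0.26, -0.33, -0.19 and -0.07. Marco, Dok1 and Il18, an interleukin-1 family cytokine, kept most of their size, at -1.23, -1.30 and -1.20, with adjusted p of 0.115, 0.0884 and 0.0956. Over all clusters the count went from 772 to 412, and 121 of the 356 rises and 111 of the 416 falls still passed. With the covariate, 2 of 22 S100 and annexin genes passed, 1 of 24 actin genes, 1 of 23 phosphoinositide 3-kinase genes, 1 of 12 progenitor markers and 0 of 13 stromal markers. The median difference over the original calls was 0.66 for the rises and -0.54 for the falls.

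**Figure D4:**
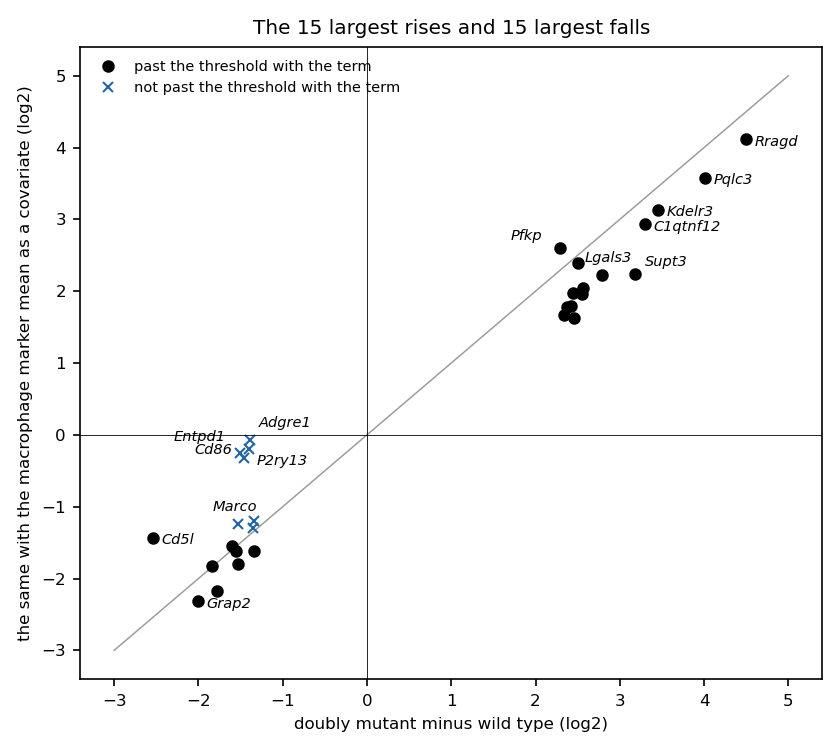
Doubly mutant minus wild-type difference of the 15 largest rises and 15 largest falls without (horizontal) and with (vertical) the mean of 15 macrophage markers as a covariate, both log2; the diagonal marks equal values and crosses mark genes that no longer passed. All 15 rises still passed, the smallest being Cyp4f39 at 1.63, whereas Adgre1, P2ry13, Entpd1 and Cd86 move to between -0.07 and -0.33.

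Lists of innate immune genes had many falling members, and fewer of these passed with the macrophage mean as a covariate. Of 22 complement and scavenging genes 6 fell and 0 rose (median -0.51). Cfp, the complement regulator properdin, read 8.02, 8.78, 8.87 and 9.93 against at most 10.25 in wild type, lowest in replicate 1 and highest in replicate 4 like the macrophage mean. Axl, a receptor for dying cells, fell by 0.61 and lost its call without wild-type replicate 3 (adjusted p = 0.0649), Cfp without wild-type replicate 1, 2 or 3 or doubly mutant replicate 2 or 3 (up to 0.0827). The lectin gene Cd209f also fell, but its doubly mutant mean was lower than the bottom quartile of every such array, and no size is given. The list had 2 members past the threshold without wild-type replicate 3 and 10 without doubly mutant replicate 4, and 1 of the 22 with the macrophage covariate. Timd4 and C1qa, among its 6 falls, are also macrophage markers, so that last count is partly fixed. Of 17 Toll-like and related receptors 4 fell and 0 rose, with a median of -0.62: Tlr4 (-1.03), Tlr13 (-0.97), Tlr6 (-0.88) and Tlr2 (-0.72). Tlr6 kept its call without any one array, while the list had 1 member past the threshold without doubly mutant replicate 3 or wild-type replicate 1, 2 or 3, 2 without doubly mutant replicate 1 or 2, Klf3-/- replicate 1 or wild-type replicate 4, and 10 without doubly mutant replicate 4. With the covariate 0 of the 17 passed, and Tlr6 gave -0.32 (adjusted p = 0.179). Cybb, the phagocyte oxidase subunit, was the only one of 14 granulocyte and myeloid markers to pass (-1.36); its call rested on most single arrays (kept only without doubly mutant replicate 4, Klf3-/- replicate 3 or Klf8gt/gt replicate 1), and the list median was 0.05. The part of macrophage content in these lists was not tested further.

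Signalling genes of the lymphoid and phosphoinositide pathways formed a further set. Of 21 T cell and lymphoid adaptors 5 fell and 0 rose, namely Grap2, the costimulator gene Icos (-1.03), the phosphatase genes Ptpn22 (-0.72) and Ptpn6 (-0.57) and the B cell linker gene Blnk (-0.54). At least as many passed whichever array was left out, and 8 passed without doubly mutant replicate 4. Icos, Ptpn22 and Blnk lay below the array medians in doubly mutant arrays, and Ptpn22 (5.87) and Blnk (5.74) did so in wild type as well. Ptpn6, the SHP-1 phosphatase that ends erythropoietin receptor signalling, read 7.98, 7.94, 7.98 and 8.48 against 8.57 to 8.75. With the macrophage covariate 2 of the 21 passed, and Ptpn6 gave -0.21 (adjusted p = 0.385). Of 23 genes of the phosphoinositide 3-kinase pathway, Pik3r1, Pik3ap1 (-0.59) and Pik3r3 (-0.41) fell and Pik3c2b, a class II kinase, rose (0.81). The catalytic subunit genes Pik3ca (-0.18, adjusted p = 0.196), Pik3cb (-0.26, 0.227) and Pik3cd (-0.18, 0.417) did not pass. Pik3r1 and Pik3c2b kept their calls without any one array. Pik3ap1 lost its call without doubly mutant replicate 3 or wild-type replicate 1, 2 or 3 (up to 0.0775), and Pik3r3 kept its own only without doubly mutant replicate 2 or 3 or Klf8gt/gt replicate 1 or 4.

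Purine handling at the cell surface was lower at 3 of 15 genes and higher at 0, with Entpd1, P2ry13 and Ada, the adenosine deaminase (-0.64 ± 0.11). Ada read 6.82, 6.41, 6.71 and 6.59 against 7.09 to 7.39. With the macrophage covariate 0 of the 15 passed, the list median went from -0.14 to 0.24, and Ada gave -0.63 (adjusted p = 0.0846). Of 12 septins only Septin1 passed. Rab32, a GTPase of lysosome-related organelles (-0.93), and Rac2, the blood-cell Rac GTPase (-0.91), fell in the list of 19 small GTPases, in which Arl15 rose. Rab32 lost its call without doubly mutant replicate 2 or 3 or wild-type replicate 2 or 3 (adjusted p up to 0.0838) and Rac2 without those or wild-type replicate 1 (up to 0.0895). Both came close to 0 with the macrophage covariate, at -0.27 and -0.23.

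Erythroid genes were lower on average, with few of them past the threshold. Of 21 erythroid transcription factors Nfe2 (-0.61), the activator of globin enhancers, and Cbfa2t3 (-0.76), the corepressor ETO2, fell, and Ldb1, which bridges GATA1 and TAL1 complexes, rose (0.51 ± 0.07, adjusted p = 6.49e-04). Ldb1 read 10.84, 10.87, 10.68 and 10.83 against 10.17 to 10.37 and kept its call without any one array. Nfe2 lost its call without wild-type replicate 1, 2 or 3 or doubly mutant replicate 3 (adjusted p up to 0.0958) and Cbfa2t3 without wild-type replicate 2 or 3 or doubly mutant replicate 2 (up to 0.0884), and a second Cbfa2t3 cluster gave 0.01. Gata1 gave -0.43 (adjusted p = 0.138), Tal1 -0.56 (0.0501) and Gfi1b -0.46 (0.123). The list median was -0.24, and the number past the threshold was 9 of 21 without doubly mutant replicate 1, 5 without Klf8gt/gt replicate 1 or wild-type replicate 4 and 1 without wild-type replicate 2 or 3. Of 11 erythroid markers Klf1 and Hemgn, a nuclear protein of red cell precursors (-0.50 ± 0.11, adjusted p = 0.0234), fell and 0 rose, with a list median of -0.31; Hemgn lost its call without doubly mutant replicate 3 or wild-type replicate 1, 2 or 3 (up to 0.086). Globin switching regulators were flat, with 0 of 10 past the threshold and a median of -0.02, Myb at 0.16 (adjusted p = 0.572) and Sox6 at -0.40 (adjusted p = 0.185).

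Late maturation genes had the lowest median of the erythroid lists, -0.43, with 14 of 15 members below 0 and 2 past the threshold. Ypel4 read 11.47, 11.17, 10.87 and 9.92 against 11.98 to 12.27, and Trim58, a ubiquitin ligase that helps expel the nucleus, read 8.36, 8.07, 7.31 and 6.95 against 8.49 to 8.95. In both genes replicate 4 was furthest from wild type and replicate 1 nearest, the reverse of the order among the largest rises. Ypel4 kept its call without any one array, whereas Trim58 lost it without any of 9 (adjusted p up to 0.127). The mean of the list shows the same order, at 11.10, 10.92, 10.50 and 10.07 in replicates 1 to 4, and replicate 1 overlapped the wild-type range of 10.97 to 11.24. This list went the other way from the innate lists when the macrophage mean was added: 7 of 15 then passed. It was 8 of 15 without doubly mutant replicate 1. Among haem and iron genes the iron exporter gene Slc40a1 (-0.85) and the haem enzyme gene Uros (-0.47) fell, 2 of 20. Slc40a1, which macrophages also express, gave -0.11 with the covariate (adjusted p = 0.677) and lost its call without doubly mutant replicate 3 or wild-type replicate 2 or 3; Uros kept its call only without doubly mutant replicate 1, Klf8gt/gt replicate 1 or wild-type replicate 4. Aqp1, the red cell water channel, fell by 0.84 (adjusted p = 9.72e-04) as the only one of 21 membrane genes and of 14 KLF1-activated genes to pass, and the aquaglyceroporin gene Aqp9 fell by 1.12 (2 of 9 aquaporins lower, 0 higher). With the macrophage covariate neither passed, Aqp1 at -0.78 (adjusted p = 0.0521) and Aqp9 at -1.08 (0.0905).

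Embryonic globins did not pass the threshold, although all 3 had higher means. Hbb-bh1 read 10.85, 12.15, 12.37 and 11.99 against 9.64, 10.61, 10.54 and 11.25, and Hba-x read 12.42, 13.54, 13.18 and 13.32 against a wild-type range of 10.70 to 12.59. In each gene replicate 1 of the double mutant lay within the wild-type range and the other 3 arrays above it. The differences were 1.33 ± 0.38 (adjusted p = 0.0698) and 1.36 ± 0.38 (0.0683), with an exact two-sided permutation p of 0.0571 for each. Both passed only without doubly mutant replicate 1, Klf8gt/gt replicate 1 or wild-type replicate 4, with adjusted p down to 0.0115 and 0.0217. Hbb-y, the third gene, did not pass in limma whichever array was left out (adjusted p from 0.0961 to 0.494). Adult globins had no cluster of their own and were not analysed here.

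Metabolic genes gave mixed results. Of 14 glycolysis genes Pfkp rose and 0 fell. The list median was 0.39, with 10 of 14 above 0, and its mean was 11.14, 11.72, 11.08 and 11.63 in doubly mutant replicates 1 to 4 against 11.01 to 11.18 in wild type. Only replicates 2 and 4 stood above the wild-type range. Pkm gave 0.55 (adjusted p = 0.0684), Pgk1 0.53 (0.14) and Aldoa 0.51 (0.211), and 7 of 14 passed without doubly mutant replicate 1. Taldo1, of the pentose phosphate pathway, fell by 0.64, as 1 of 17 genes there, and lost its call without doubly mutant replicate 3 or wild-type replicate 1, 2 or 3 (adjusted p up to 0.0616). In the fatty acid list Plin2, the lipid droplet coat protein, read 11.07, 11.16, 11.04 and 11.06 against 11.58 to 11.86 and fell by 0.68 ± 0.09. The fatty acid carrier gene Cd36 fell by 1.21, with overlapping groups, and lost its call without doubly mutant replicate 3 or wild-type replicate 2 or 3 (up to 0.0781). All 13 cholesterol synthesis genes had positive differences, with a median of 0.30 and 0 past the threshold. The stress pseudokinase gene Trib3 rose by 0.70 ± 0.14, 1 of 24 stress genes, and the cochaperone gene Dnaja4 fell by 0.86, 1 of 14 chaperones.

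Lists of cell growth and protein turnover had few members past the threshold. Cell cycle genes had 0 of 30 past the threshold (5 at an unadjusted p under 0.05 in limma, median -0.09). In DNA replication, 1 of 21 rose, Orc1, the largest subunit of the origin recognition complex, at 9.91, 9.37, 9.07 and 8.71 against 8.08 to 8.37. Of 16 p53 targets Phlda3 (-1.21) and Ccng1 (-0.50) fell, the first with a call that held without any one array and the second with one lost without any of 11. Autophagy genes had 19 of 19 negative differences (18 of 19 after a further quantile normalization) and a median of -0.28, and 0 passed in limma, with 6 at an unadjusted p under 0.05. Proteasome and ubiquitin genes had 21 of 21 below 0 (20 after quantile normalization), a median of -0.19 and 14 at an unadjusted p under 0.05 in limma. Only Psme4 passed after adjustment (-0.54; adjusted p = 0.0567 without wild-type replicate 3), and 5 of 21 passed without doubly mutant replicate 1. Imprinted genes had 17 of 19 above 0, a median of 0.45 and 0 past the threshold, with Meg3 at 0.72 (adjusted p = 0.105). Their mean was 9.65 in doubly mutant replicate 1, below the wild-type range of 9.71 to 10.14, and 10.29 to 10.55 in replicates 2 to 4. The group mean was 10.22 in the double mutant and 10.25 in Klf8gt/gt arrays. Psmb8, an immunoproteasome subunit, was the only one of 22 interferon genes to pass (-0.55), Atp5o the only one of 26 respiratory chain genes (-0.29) and Mbnl1 the only one of 20 spliceosome genes (-0.41); each lost its call without 5 or more of the 15 arrays taken one at a time. Lysosomal genes had 0 of 23 past the threshold in limma and genes of antigen presentation 0 of 11, with 6 and 2 at an unadjusted p under 0.05. The spliceosome list had a median of -0.03, which became 0.02 after quantile normalization. Progenitor markers had 1 rise in 12, Spi1, and 2 falls, Cd48 (-0.63) and Mecom (-0.73). Both calls were lost without doubly mutant replicate 3 or wild-type replicate 3 among others. Both genes lay below the array medians in doubly mutant arrays, and Cd48 did so in wild type as well (6.21). A second Mecom cluster gave -0.14 (adjusted p = 0.467). Cytosolic ribosomal protein genes had 0 of 24 and a median of 0.06, KLF3 corepressors and partners 0 of 13 and 0.08, and the related Sp factors 0 of 8 and -0.10. In limma 2, 3 and 1 members of these lists had an unadjusted p under 0.05. Notch, Wnt and TGF-beta pathway genes had 0 of 15, 0 of 20 and 0 of 25 past the adjusted threshold in limma, and 3, 5 and 7 at an unadjusted p under 0.05.

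Over the 989 listed genes with a cluster of their own, 79 passed, or 7.99%, more than the 3.3% of all clusters; the lists were assembled with results of these data known, and nothing is read from that. Some genes stand in more than 1 list, such as Pik3r1, which is also the only one of 20 erythropoietin receptor signalling genes to pass, and Cyp4f39, the only one of 12 family 4 cytochromes. Stromal markers held 2 rises in 13, the collagen genes Col1a1 (0.86 ± 0.16) and Col1a2 (0.58), the second of which lost its call without wild-type replicate 1, 2 or 3 (adjusted p up to 0.0856). Col1a1 read 10.60, 10.25, 11.13 and 10.28 against 9.53 to 9.95. Hepatocyte, endothelial and megakaryocyte markers had 0 of 16, 0 of 11 and 0 of 9 past the threshold in limma (1, 1 and 0 at an unadjusted p under 0.05). The hepatocyte median was 0.02, or -0.0048 after median centring. As a mean they were low in doubly mutant replicate 1 alone, at 10.71 against 11.76 to 11.84 in the other 3 and 11.29 to 11.72 in wild type.

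**Figure D5:**
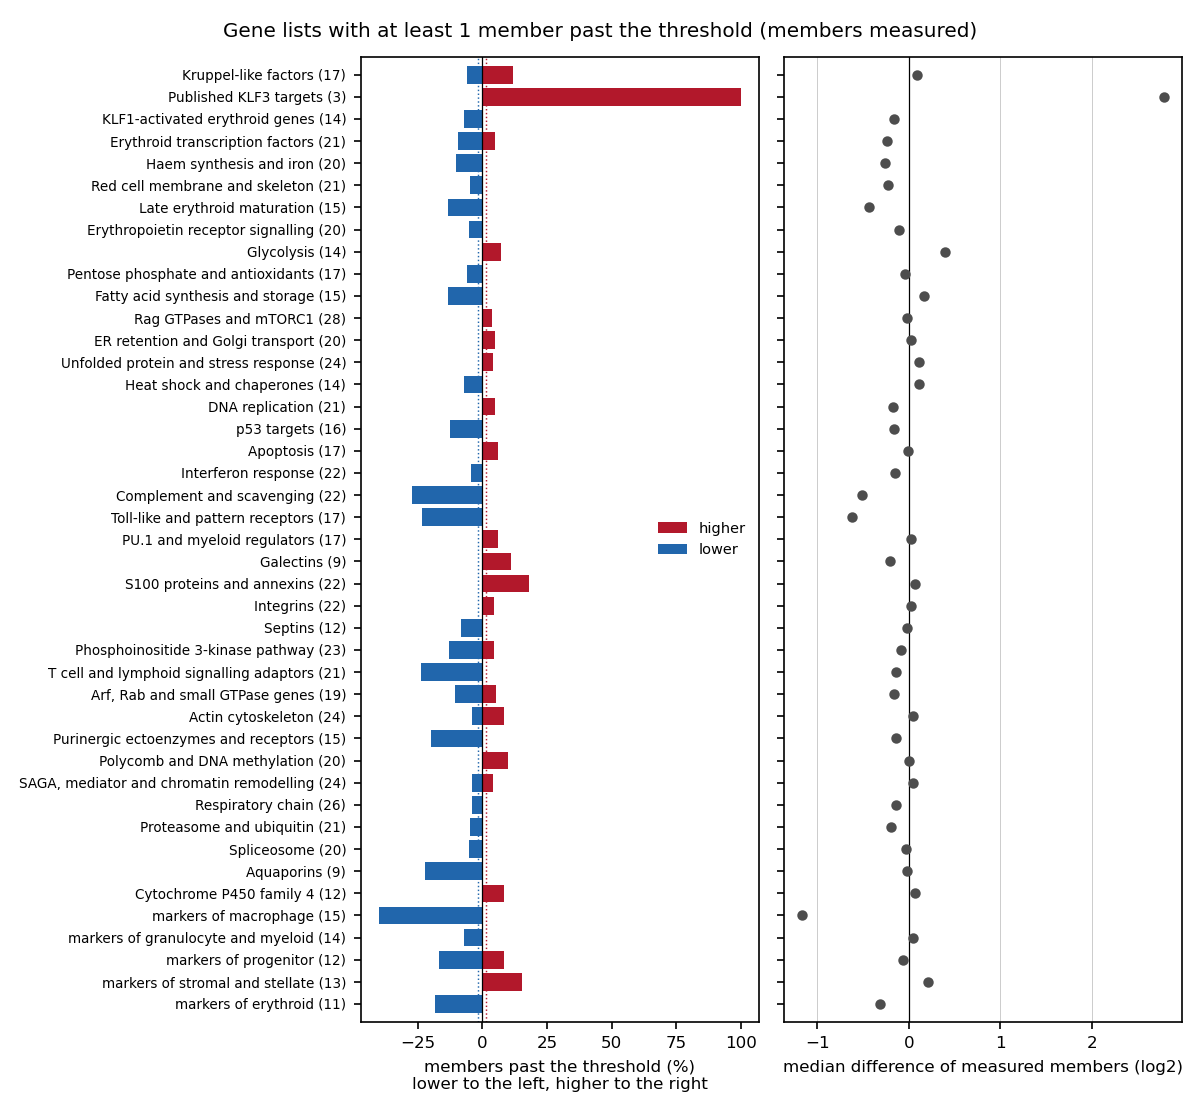
Share of measured members past the threshold in each gene list with at least 1 such member (left, percent; red higher and blue lower in doubly mutant arrays, dotted lines at the 1.52% and 1.78% of all clusters) and the median difference of all measured members (right, log2). The share is largest for the 3 published KLF3 targets and the 15 macrophage markers, whose medians are 2.79 and -1.17. The number in brackets is the number of members measured.

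The same clusters were read in the single mutants, which share the wild-type arrays with the comparison above, so that the values are set side by side and not counted as support. Against wild type, 137 clusters passed in arrays labelled Klf3-/- (0.585%). In Klf8gt/gt arrays 0 passed in limma (0.0%), with 3135 at an unadjusted p under 0.05. Of the 15 largest rises of the double mutant, 13 also passed in the Klf3-/- contrast and 0 in the Klf8gt/gt contrast. Pqlc3 gave 4.01, 4.04 and -0.14 in double mutant, Klf3-/- and Klf8gt/gt against wild type, and C1qtnf12 3.30, 3.29 and -0.02. Rragd gave 4.50, 3.87 and 0.58, and Kdelr3 3.46, 2.53 and 0.25. Of the 15 largest falls, 3 passed in the Klf3-/- contrast (Grap2, Septin1 and Pik3r1). Marco gave -1.54, -0.21 and -0.27, Glrx -1.34, -0.28 and -0.15 and Prokr1 -1.79, -0.57 and -0.21. Over the clusters called higher in the double mutant, the median distance from the wild-type mean was 0.40 to 0.52 in the 3 Klf3-/- arrays and -0.04 to 0.17 in the 4 Klf8gt/gt arrays.

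Whether the double mutant went beyond the Klf3-/- single mutant was tested directly. Of the 30 genes with the largest differences 0 passed in that contrast, which had 3 arrays on one side. These genes were chosen by their difference from wild type on the same doubly mutant arrays, so their values here are not independent of that choice. The 95% intervals, which are not adjusted for the number of genes, are given for a few picked from the 30. That of Pqlc3 ran from -0.50 to 0.44 and that of C1qtnf12 from -0.35 to 0.37, whereas that of Kdelr3 ran from 0.53 to 1.31, of Cyp4f39 from 0.65 to 2.04, of Prokr1 from -1.76 to -0.68 and of Marco from -1.93 to -0.73 (limma adjusted p of 0.974, 0.989, 0.117, 0.128, 0.117 and 0.124). Over all clusters 11 passed (0.047%), among them Klf8, which was lower, at -1.43 ± 0.22, and Itgb7, which was higher by 1.47 ± 0.16 (adjusted p = 0.00346). The other 9 were higher, among which were Parm1 (1.44), Gbp2b (1.37), Tnks1bp1 (1.25), Tcfl5 (1.12) and Ncam1 (0.78). Parm1, Tnks1bp1, Tcfl5 and Ncam1 were also higher than wild type (1.77, 2.16, 1.38 and 1.01). Gbp2b, an interferon-inducible GTPase gene, was not: its difference from wild type was 0.29 (adjusted p = 0.331). Against Klf8gt/gt arrays 785 clusters passed (3.35%), and Rragd, Pqlc3 and Itgb7 differed there by 3.92, 4.15 and 2.16. These genes of the direct contrast were named after their values were seen.

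Position on the chromosome was described last, by the order of genes in the RefSeq gene table. Among the 25 nearest measured genes on each side of Klf3, 3 of 50 fell (Tlr6, N4bp2 and Tmem33, at -0.88, -0.58 and -0.50) and 0 rose, and around Klf8 2 rose (Shroom2, 1.71, and Acot9, 0.90) and Kctd12b fell (-0.70). Over all ordered genes 701 of 19856 passed. Over the genome, 52 of 19834 pairs of neighbouring measured genes were both called, 12 both higher, 31 both lower and 9 in opposite directions. A pair with large rises was Setd4 and Cbr1, a lysine methyltransferase and a carbonyl reductase, whose start sites face apart. Setd4 read 9.44, 8.94, 8.69 and 8.12 against 6.49, 6.69, 6.72 and 7.10, and Cbr1 read 10.76, 10.96, 10.37 and 9.74 against 8.31, 8.04, 8.18 and 8.27. Fam114a2 and Mfap3 gave 1.53 and 1.14, and Ube2j1 beside Rragd gave 0.71. Cd59a and Cd59b, both higher (1.37 and 1.32), are near-identical copies whose probes may not separate them. Neighbours and pairs were named after their values were seen.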

How the data were processed

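Transcript levels were measured on Affymetrix mouse arrays, 1 per sample. The authors deposited log2 values, summarised by RMA, with Partek also named, per the submitters' processing notes; versions and the array annotation's genome build are not given in the sources used here. RMA sets all arrays to a like distribution, so values are relative within an array, and the files hold no detection call.

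Genotypes came from the labels, sex from Xist and Y-linked signal. Genes were named through the platform annotation, with 21789 clusters of 1 symbol and 1621 of several; 21698 gene IDs matched the RefSeq table (GRCm38.p6), which also gave promoters and gene order. limma 3.58.1 in R 4.3.3 (lmFit, eBayes) fitted 1 mean per genotype over 15 arrays, with Benjamini-Hochberg adjustment over 23410 clusters and a threshold of 0.05. The median standard error was 0.112 on 11 residual degrees of freedom, and the small number of arrays limits the precision. The fit was tested on simulated data.

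Named genes were the targeted genes, up to 6 members past the threshold per list, and the 15 largest differences each way among 1-symbol clusters past the threshold. For the last, the groups had to be separate and the higher mean above every array median, and predicted genes, clone names, Xist and Y-linked genes were skipped. Any other gene was picked with its values in view. The members, lists and tests were chosen with earlier results of these data known. The 29 alternatives covered moderation, scaling, filters, array weights, the arrays fitted, sex, the replicate number as a block, macrophage markers and each array left out. Clusters without a symbol were fitted only as an alternative.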

Additional observations from a re-analysis of the deposited data

Results flagged for a closer look

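Among 204 group values examined for the named genes, 5 had 1 array far from the other 3 of its group. That is fewer than chance would flag at about 1 group in 20, so the flags are described and nothing is read from them. Wild-type replicate 4 stood apart in 3 of them: Dok1 read 8.98 there against 9.50 to 9.57, Tet1 6.51 against 6.20 to 6.23, and Kdm6b 8.36 against 8.03 to 8.08. In each of the 3 that array lay nearest to the double mutant. Tlr4 read 7.62 in wild-type replicate 3 against 6.82 to 6.91. Ptpn6 read 8.48 in doubly mutant replicate 4 against 7.94 to 7.98, which is the array with the highest macrophage mean of its group.

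The clusters without a gene symbol were not part of the comparisons above. When all 35556 clusters were fitted together, 118 of the 12146 without a symbol passed the threshold, 43 higher and 75 lower in doubly mutant arrays. No gene can be named for them from the files used here.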

How the results depend on the processing

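Over 29 alternatives, the 30 largest differences gave 868 values: 850 kept their direction and passed the threshold, 18 kept their direction without passing and 0 reversed. In every alternative that tested them, 22 of the 30 genes passed. The 30 genes were chosen for large differences and separate groups on these same arrays, so few losses were likely from the start and nothing is read from them. The number of called clusters moved with the setting. With only the 8 doubly mutant and wild-type arrays it was 295 (181 higher, 114 lower), with the macrophage mean as a covariate 412 (210 and 202), and without doubly mutant replicate 1 and Klf8gt/gt replicate 1 together 2260 (1193 and 1067), against 772 (356 and 416). Leaving out each array in turn gave 382 to 1389 (227 to 605 higher, 155 to 784 lower). With 8 arrays fewer residual degrees of freedom remain, and the spread is no longer estimated from the single mutants as well. The cause of the change in count was not tested for any setting. Sex as a covariate gave 633. Fitting male embryos only left 2 doubly mutant arrays and 1 labelled Klf3-/-, so effect sizes alone are given. Over the original calls the median difference was then 0.75 for the rises and -0.49 for the falls. With all arrays these medians were 0.72 and -0.63. With the replicate number as a block the count was 986 (435 higher, 551 lower). Deviations from the group means of doubly mutant and wild-type arrays with the same number had correlations of 0.07, -0.14, -0.11 and 0.06 over all clusters. Low values of this kind do not show how single genes behave. The embryonic globin mean was lowest in replicate 1 of wild type (11.27), Klf8gt/gt (11.35) and the double mutant (12.51), though not of Klf3-/-. A shared effect of the replicate number was not tested further. Without a detection call, differences of dim clusters, such as Klf8 and Kdelr3 in wild type, are the least certain in size.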

Other observations

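A few further genes past the threshold were noted after their values were seen. Vegfa, the vascular growth factor gene, read 9.72, 10.96, 10.27 and 9.95 in doubly mutant and 8.98, 8.82, 8.86 and 9.26 in wild-type arrays, a difference of 1.25 ± 0.20 (limma adjusted p = 0.00211). The collagen-modifying hydroxylase genes P4ha2 and Plod2 were higher by 1.03 ± 0.15 and 1.16 ± 0.23 (adjusted p = 8.92e-04 and 0.00985). Replicate 2 of the double mutant was the highest array for all 3 genes and replicate 1 the lowest; for Pfkp replicate 2 was also the highest. Car1, the carbonic anhydrase of early red cell precursors, read 10.53, 11.15, 10.40 and 11.28 against 10.25, 9.37, 9.13 and 10.11 (1.13 ± 0.25, adjusted p = 0.0191); it did not pass without doubly mutant replicate 2 (0.057) or wild-type replicate 2 or 3 (0.0763 and 0.0764). The groups did not overlap for any of the 4 genes.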
